A study of Mus musculus with 14 samples.

Results

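In the table of poly(A) sites from mouse 3T3 cells, 1427 of 17807 loci carried 4 or more 3′ ends and enough reads to compare them. Sites on the same chromosome and strand were linked into a locus when neighbours lay within 2000 nt, and a locus was kept when at least 3 of its ends had 30 or more counts over the controls and the actinomycin D libraries together. These loci made up 8.01% of all loci and held 7486 of the 33590 listed ends (22.3%). Many genes carry several polyadenylation signals in their last exon or upstream of it, and the cleavage machinery recognises one of them per transcript. Where cleavage falls sets how much 3′ untranslated sequence the mRNA keeps, and with it the binding sites for microRNAs and RNA-binding proteins that can act on mRNA decay and translation. Cleavage is also imprecise, so several cut positions can follow a single signal.

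The study measured 3′ ends in 3T3 cells, an immortalised mouse fibroblast line, by 2P-Seq, which primes and sequences poly(A)+ RNA from the tail. Cells were treated with actinomycin D, a transcription inhibitor, at 10 µg/ml for 1, 2, 4 or 8 h (1 library each), and 2 libraries came from control cells. A further 6 libraries came from the fractions of 1 sucrose gradient, which sorts mRNAs by how many ribosomes they carry, and are called here by the number in the authors' column names (fractions 0, 1, 2.5, 4.5, 7.5 and 12). Libraries of 3T3 and mouse embryonic stem cells made by 3P-Seq, the assay that defined the sites, were not analysed here. Totals ran from 4045420 counts at 8 h to 6433503 in control 2, and from 1663346 in fraction 0 to 11575417 in fraction 12, and the 1427 loci held 16.1% to 24.5% of the counts of each library. The deposited table pairs no site with a gene name and no annotation of its genome build (mm9) was used here, so loci are given by position, fibroblast markers could not be looked up, and a locus can join neighbouring genes.

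The loci were dense clusters of ends. Of the 1427, 596 had 4 ends, 370 had 5, 217 had 6 and 110 had 7, while 26 had 10 or more and 2 had 14, the most among these loci. From first to last end they spanned a median of 1513 nt (middle 50%: 845 to 2340 nt, full range 68 to 6245 nt). The median gap between neighbouring ends was 187 nt. Ends were often packed tightly, with 2208 of 6059 gaps (36.4%) under 100 nt and 632 under 30 nt, while 772 gaps (12.7%) reached 1000 nt. The loci were split evenly between strands (723 plus, 704 minus) and lay on 20 chromosomes.

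Neighbouring ends within a locus lay up to 1996 nt apart, and the nearest end outside lay 2001 nt away. The weakest locus kept had 30 counts at the weakest of its top 3 ends and the strongest left out had 29, and 136 members had fewer than 40 counts there, against 137 left-out loci with 20 or more. Of the 2060 loci with 4 or more ends, 633 were left out for counts. Within members, 5946 ends reached 30 counts over the controls and actinomycin D libraries, 1540 did not, and 109 of these had no count at all in those libraries.

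Most loci leaned on 1 end while using others at lower levels. In the 1390 loci with at least 50 reads in each control, the most used end took a median of 59.4% of the locus' reads (middle 50%: 46.5% to 75.9%), and in 67.3% of loci it took more than 50%. That end was an internal end in 60.4% of loci, the last end in 26.9% and the first end in 12.7%, where internal ends were 59.3% of all ends and last ends 20.3%. The plot of use by order shows the first end below the others. In loci with 4 ends, the mean shares along the order were 17.9%, 22.0%, 28.2% and 31.9%. In loci with 8 ends they ran from 9.75% at the first end through 16.5% at the seventh to 13.1% at the last. First ends under 5% of the reads were common, at 41.2% of loci with 4 ends and 58.1% of loci with 8. Ends under 5% were also common at the other places. Their share there was 26.6% to 37.6% in loci with 4 ends and 41.9% to 58.1% in loci with 8.

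**Figure D1:**
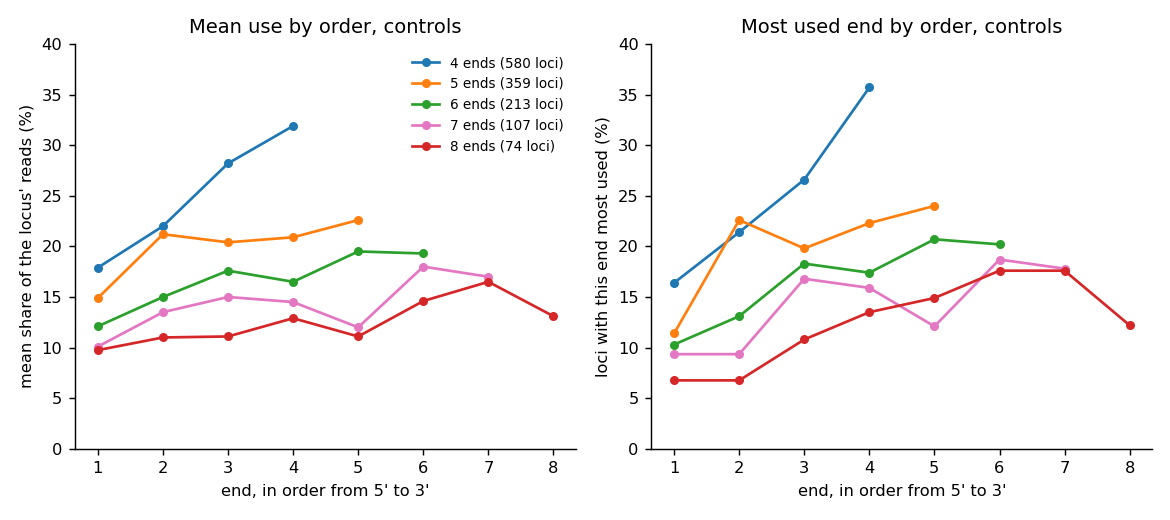
Mean share of a locus' reads in the summed controls (left, %) and percent of loci in which an end was the most used (right, %), by the end's place from 5′ to 3′, with 1 line for each number of listed ends from 4 to 8. The first end is the lowest or tied for the lowest in every line of both panels, and in loci with 4 ends the mean share climbs from 17.9% at the first to 31.9% at the last.

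Diversity of use was expressed as the effective number of ends, which is the number of equally used ends that would give the same chance of drawing reads from different ends, corrected for depth. Its median was 2.23 (middle 50%: 1.66 to 2.90), well under the number of ends listed. It was 2.02 in loci with 4 ends, 2.41 with 6, 3.07 with 8 and 3.53 with 9 or more, so added ends brought diversity less than in proportion. Diversity was similar between libraries of the same locus. Across 954 loci the effective number in control 2 followed that in control 1 with a Spearman rho of 0.95, and across 746 loci the summed gradient fractions followed the summed controls with a rho of 0.91. These are descriptions across loci, which share their libraries and are not independent replicates.

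In loci that kept enough reads, diversity of use changed little in the median with time in actinomycin D or along the gradient. The values needed at least 50 reads in every library of the set, so loci that decayed to fewer reads are left out. In the 954 loci deep enough in all 6 libraries, the median effective number was 2.14 and 2.10 in the controls, and 2.11, 2.11, 2.12 and 2.12 at 1, 2, 4 and 8 h. In 896 loci deep enough in all fractions it lay between 2.07 and 2.11. Single loci moved more than the median. The median size of the difference between 8 h and the controls' mean was 0.226, against 0.113 between the 2 controls. At 8 h, 406 loci (42.6%) lay above both controls and 372 (39%) below both. These shares were 34.5% and 32.3% at 1 h, and 40.4% and 33.8% at 4 h. An unchanged library would also lie outside 2 controls in many loci, so these are not counts of loci that changed. The 8 h library also had the lowest total of the 6, and the part of depth in these differences was not tested.

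**Figure D2:**
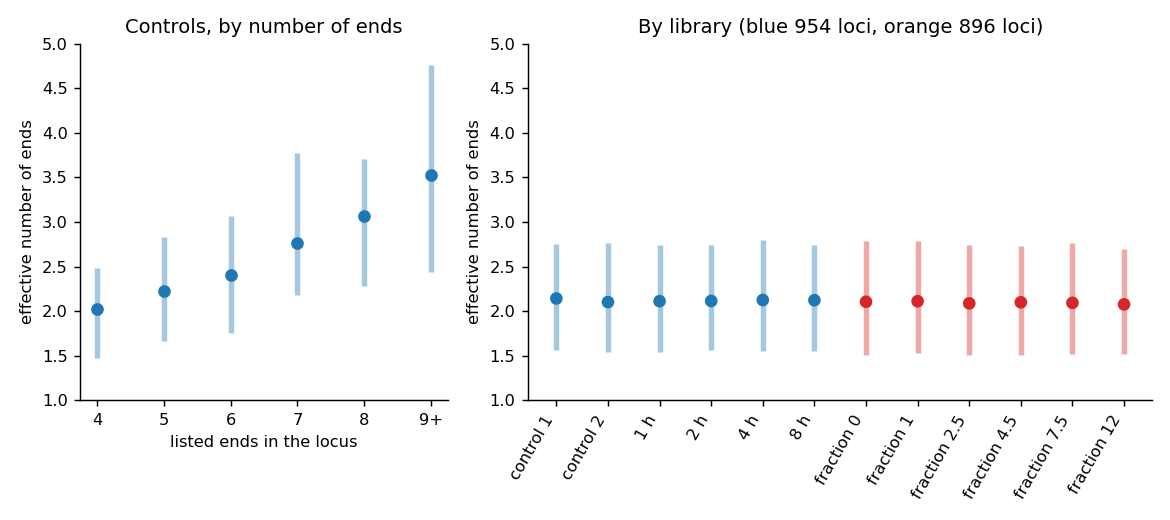
Effective number of ends per locus as the median (points) and middle 50% of loci (bars), by the number of listed ends in the controls (left) and by library (right; 954 loci for controls and actinomycin D, 896 for the gradient). The median climbs from 2.02 with 4 ends to 3.53 with 9 or more and stays between 2.07 and 2.14 in the 12 libraries.

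The loci at the extremes show what the median hides. The 2 most even loci with at least 200 reads in each control were both on chromosome 2. At chr2:109737875-109741158 (plus strand, 10 ends) the effective number was 7.26 and 6.77 in the controls, and no end exceeded 23.3% of the reads in either. At chr2:23052592-23054071 (plus strand, 10 ends) it was 6.28 and 6.15. The most dominated loci had a single end with nearly all reads: chr17:24857850-24859012 (plus strand) had 4478 and 4474 reads in the controls at its second end, 11 and 4 at the first, 22 and 23 at the third, and 5 and 0 at the fourth. The other, chr6:88831616-88833813 (minus strand), had 2600 and 2030 reads at the third end and no more than 15 at any other in either control.

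The loci with most listed ends were not all evenly used. At chrX:98877686-98879687 (plus strand), with 14 ends, the last end had 549 and 938 reads in the controls and the effective number was 1.33 and 1.27, so the other 13 ends together were a small minority. At chr12:4883037-4887124 (minus strand), also with 14 ends, it was 9.57 in control 1 and 6.38 in control 2, where 2 ends 21 nt apart had 67 and 72 reads in control 2. At chr9:38549473-38552028 (plus strand), with 13 ends, it was 5.42 and 5.24.

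The 4 loci with most control reads ranged from 92909 and 77427 reads at chr19:34315578-34316041 (minus strand) to 13744 and 17201 at chr6:67234040-67236402 (plus strand). In the first of these, the second and the third of 4 ends lay 21 nt apart. The second held 73.7% and 74.0% of the reads in the controls and 74.7%, 73.6%, 75.1% and 74.1% at 1, 2, 4 and 8 h. The proportions of that pair of neighbouring ends were thus nearly the same throughout, in the most deeply covered of these loci. In the chromosome 6 locus, the last of 5 ends had 161 reads at 8 h, against 53 and 120 in the controls, a rare end with a deposited half-life of 27.6 h where the other 4 have 4.53 to 5.88 h (first against last adjusted p = 0.118, not called). At chr19:10058812-10059604 (plus strand, 7 ends), 1 end had 29218 and 28966 control reads. At chr11:55208001-55208938 (minus strand, 4 ends), the last end had 10484 and 10132.

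The identity of the most used end was mostly kept in loci with at least 50 reads in every control and actinomycin D library. In 954 loci, control 2 had the same most used end as control 1 in 92.1%, the 1 h library in 92.5%, the 2 h and 4 h libraries in 91% each, and the 8 h library in 86.9%. In 92 loci (9.64%) the controls shared a most used end and the 8 h library had another, and in 64 of these 92 (69.6%) the new one lay 5′ of the old. A switch away from a last end can only go 5′, and one away from a first end only 3′. In the 1390 loci above, the most used end was the last in 26.9% and the first in 12.7%. The share of 69.6% has no baseline for this, and a direction was not tested. In 746 loci, the most used end of the summed fractions was that of the summed controls in 90.3%.

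After actinomycin D, 470 of the 1427 loci (32.9%) fell and 384 (26.9%) rose relative to the rest of the library, by an edgeR quasi-likelihood F test of a slope on hours with Benjamini-Hochberg adjustment over all 10734 loci tested. Over all loci tested, 31.8% fell and 23.6% rose, so the members lay near the whole table. The median slope was -0.02 log2 per h in these loci and -0.04 over all loci. These directions are relative: with the authors' own scaling factors, which put the median of all loci at -0.20 per h, 933 of the 1427 fell and 31 rose. Differences between ends of the same locus do not depend on this choice when the pair model below is used.

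In 197 of 1427 loci (13.8%) at least 1 end was lost at a different rate from the locus, by edgeR's diffSpliceDGE locus F test at an adjusted p under 0.05. Over all 4719 loci tested it was 8.96%, in loci with 3 ends 7.9% and in loci with 2 ends 6.26%. These loci offer more ends to the test than the others. They also have more reads, with a median of 1777 counts over the controls and actinomycin D libraries. Among loci with 60 or more counts, the median was 799 with 2 ends and 968 with 3. The parts of end number and depth in the higher share were not tested. At an unadjusted p under 0.05 the locus test passed in 460 of the 1427 (32.2%), against 24% of all loci tested. Among the ends tested, the range of slopes within a locus had a median of 0.27 log2 per h, where the median standard error of 1 end's slope was 0.08. A range over several ends exceeds the error of 1 end by scatter alone, and the part of scatter in it was not tested. Which end stood most apart varied. It was an internal end in 89 of the 197 loci, the first in 64 and the last in 44, where internal ends made up a mean of 53% of a called locus' tested ends and the first and the last 23.5% each. Where the first end stood most apart, it was lost more slowly than the locus in 49 of 64 cases. Where the last end did, it was lost faster in 30 of 44. Each time point has 1 library, and without the 8 h library the number of loci called was 23, without control 2 it was 89 and without 1 h 112. Of the 197 loci, 13 were called whichever library was left out.

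**Figure D3:**
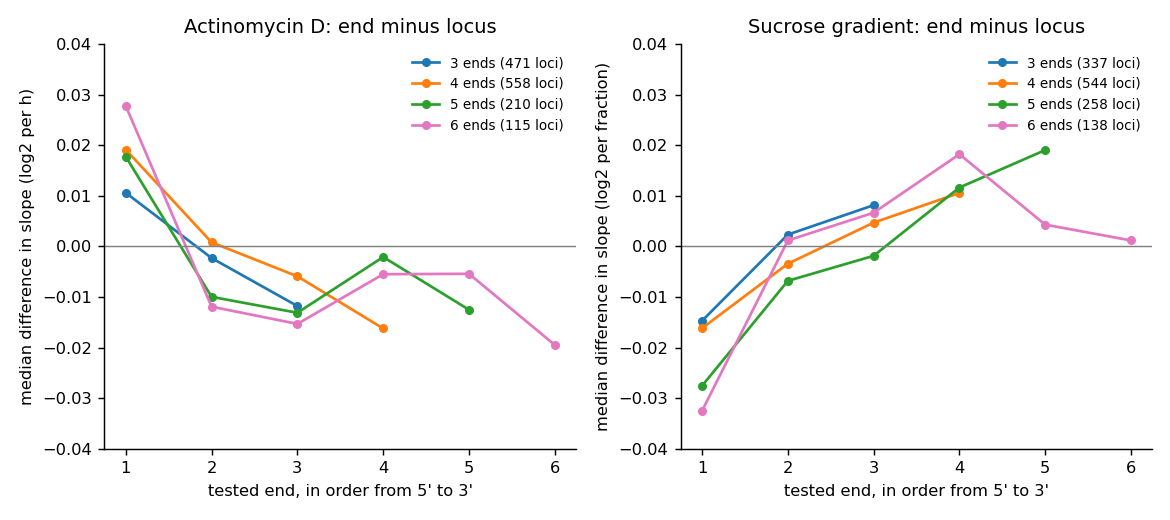
Median over loci of an end's slope minus that of its locus, by the end's place from 5′ to 3′ among the ends tested, after actinomycin D (left, log2 per h) and over the gradient (right, log2 per fraction), with 1 line for each number of tested ends from 3 to 6. In every line the first end has the highest median after actinomycin D (0.01 to 0.03) and the lowest over the gradient (-0.03 to -0.01), and all medians are small beside the range within single loci.

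Along the order, the first end had the highest median slope, by a small amount. In loci with 3 or 4 tested ends the median fell at every step to the last. In the 558 loci with 4 tested ends, the median difference between an end's slope and that of its locus was 0.02, 0.00, -0.01 and -0.02 log2 per h from first to last, and the end lay below its locus in 40.5%, 49.5%, 54.7% and 61.5% of loci. In the 115 loci with 6 tested ends, the first end was at 0.03 and the other 5 were between -0.02 and -0.01. The middle 50% of loci covered both signs at every position.

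The last end was compared with the first directly, within each library. The last end was lost faster in 32 of 1427 loci (2.24%) and more slowly in 7 (0.491%), by edgeR's quasi-likelihood test of the end by hours interaction at an adjusted p under 0.05. Over all 4719 loci tested these shares were 2.06% and 0.381%, so the calls were about as frequent as in the whole table. At an unadjusted p under 0.05 the counts were 234 (16.4%) and 86 (6.03%), against 14.9% and 6% of all loci tested. The slope of the last end lay below that of the first in 58.1% of the loci, with a median difference of -0.04 log2 per h, against 57.9% in loci with 3 ends and 57.2% in loci with 2. Of the 39 pairs called, 33 were also called by the locus test. A last end lost faster was called in 1 locus without 8 h, 4 without 4 h, 7 without control 2, 8 without 1 h, 15 without control 1 and 20 without 2 h, and one lost more slowly in 0, 0, 1, 0, 0 and 6. Of the 39 pairs, 0 were called under every omission and 32 kept an unadjusted p under 0.05 under each.

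The same lean can be seen in the raw ratio of reads, which uses the same counts and is not independent of the slopes. The median log2 ratio of last to first end was 0.55 and 0.74 in the controls and 0.62, 0.57, 0.49 and 0.25 at 1, 2, 4 and 8 h. The 1 h and 2 h ratios lay between the controls, and the 8 h ratio lay below both by more than the controls differed from each other. The share of loci with more reads at the last end was 58.0% and 59.9% in the controls, and 59.5%, 56.5%, 54.9% and 51.4% at 1, 2, 4 and 8 h. By this share the 2, 4 and 8 h libraries lay below both controls.

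The clearest example was at chr10:52156570-52159010 (plus strand), which has 5 ends. Its last end had 266 and 507 reads in the controls and 417, 274, 118 and 39 at 1, 2, 4 and 8 h. Its first end had 165 and 167 in the controls and 204, 177, 233 and 213 afterwards. The last end thus kept falling while the first did not, and its share of the locus was 17.7% and 20.1% in the controls and 15.2%, 11.9%, 5.39% and 1.70% afterwards. The slope of the last end was -0.48 ± 0.06 log2 per h (SE, 6 libraries) against the first, with an edgeR adjusted p of 0.00954. The authors' deposited table gives half-lives of 14.4 h at the first end, 16.1 h at the second, 13.2 h at the third, 4.21 h at the fourth and 2.14 h at the last, so the step lay between the third and the fourth end, 1133 nt apart. The call was lost without the 8 h library (adjusted p = 0.163).

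**Figure D4:**
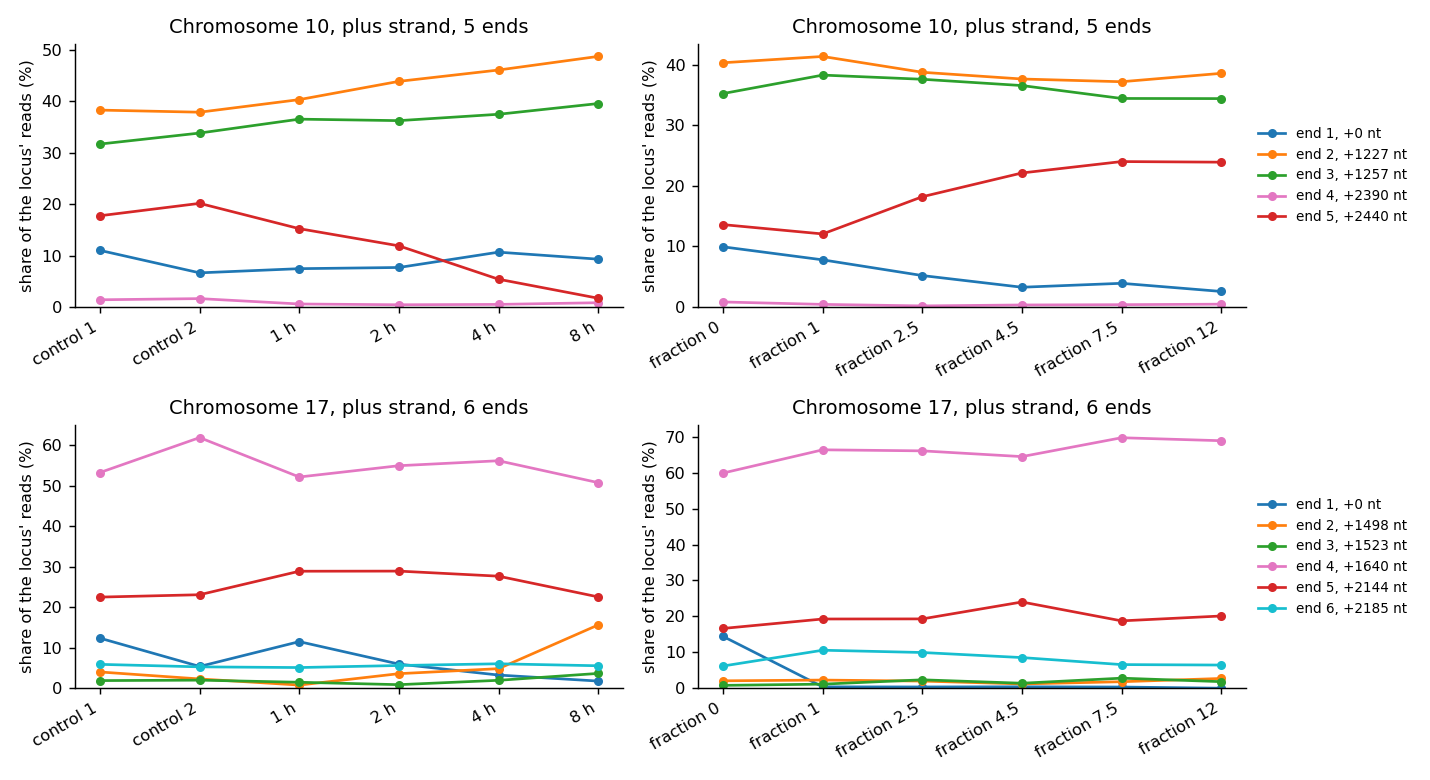
Share of the locus' reads (%) at each end in the controls and actinomycin D libraries (left) and in the gradient fractions (right), for chr10:52156570-52159010 with 5 ends (top) and chr17:13115783-13117968 with 6 ends (bottom), both on the plus strand. In the upper locus end 5 shrinks to 1.70% by 8 h and grows along the gradient, while in the lower locus end 1 is at 14.4% in fraction 0 and under 0.4% in the other fractions.

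At chr11:107799131-107800742 (minus strand, 6 ends) the last end was lost almost completely. It had 96 and 122 reads in the controls and 70, 23, 6 and 0 at 1, 2, 4 and 8 h. The first end had 29 and 26 in the controls and 18, 39, 22 and 20 afterwards. The fourth end, the most used, stood between, with 160 at 8 h, against 439 and 427 in the controls. A slope difference fitted to an end that reached 0 reads, here and at the other loci described, depends on the count model and is no bound. The last end differed from the first by -1.08 ± 0.15 log2 per h (edgeR adjusted p = 0.0136), and the pair was no longer called without the 4 h (0.0548) or 8 h (0.12) library. In the authors' deposited table the last end has a half-life of 0.986 h, against 6.19 h for the first.

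Some loci had a fast internal end. At chr2:181284294-181289836 (plus strand, 6 ends) the fourth end had 311 and 344 of the 402 and 452 control reads, and 281, 151, 57 and 4 at 1, 2, 4 and 8 h. The first end had 25 and 29 reads in the controls and 36, 38, 41 and 21 afterwards. At 8 h the fourth end was therefore at 8.33% of the reads and the first at 43.8%, of 48 reads in all. The locus test had an adjusted p of 5.34e-05, while the first against last comparison did not pass (adjusted p = 0.0929). At chr2:166619887-166622326 (plus strand, 6 ends) the second end had 108 and 119 reads in the controls, 31 at 1 h and 0 at 2, 4 and 8 h, while the first had 30 and 19 in the controls and 37, 33, 43 and 10 afterwards (locus test adjusted p = 0.000134).

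At chr2:9836179-9837701 (minus strand, 4 ends) the 3 downstream ends were all lost early and the first was not. The second end had 53 and 47 reads in the controls, 14 at 1 h, 6 at 2 h and 0 after that, and the third had 43 and 33, then 16, 0, 1 and 0. The first end had 11 and 4 in the controls and 4, 5, 3 and 10 afterwards. All 10 reads of the locus at 8 h came from the first end. The adjusted p of the locus test was 5.34e-05, and 0.176 without the 8 h library. The counts at the first end are small throughout.

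Other loci had an end that gained reads in the presence of the inhibitor. At chr7:3297592-3299353 (plus strand, 5 ends) the fourth end had 157 and 196 reads in the controls and 84, 212, 230 and 423 at 1, 2, 4 and 8 h. The last end, 43 nt downstream of it, had 559 at 8 h, against 3011 and 3500 in the controls. The fourth end thus held 39.0% of the locus at 8 h, against 4.42% and 4.89% in the controls. In the gradient it held at most 3.01%, in fraction 0. The locus test had an adjusted p of 5.34e-05, and 0.0831 without the 8 h library. At chr11:55208001-55208938, the last end had 6410 reads at 8 h, against 10484 and 10132 in the controls, while the first had 4297 at 8 h, against 1865 and 1371. The last end differed from the first by -0.28 ± 0.05 log2 per h (edgeR adjusted p = 0.0297), a call that was lost on leaving out either control, 1 h, 4 h or 8 h (0.0523 to 0.232).

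At chr19:10058812-10059604, the last end had 4857 reads at 8 h, against 4219 and 3918 in the controls, and the first had 16 and 10 in the controls and 1, 24, 73 and 178 at 1, 2, 4 and 8 h. The slope difference was -0.52 ± 0.10 (edgeR adjusted p = 0.0303), although the first end never exceeded 0.368% of the locus. This pair was not called without control 2 or the 2, 4 or 8 h library (0.0544 to 0.291). At chr5:122906067-122906942 (minus strand, 5 ends) the largest difference called was at a rare end: the last end had 8 and 28 reads in the controls and 6, 2, 0 and 0 afterwards, and the first had 16 and 11 in the controls and 12, 11, 19 and 14 (adjusted p = 0.046). At chr10:80829624-80830114 (minus strand, 4 ends) the last end had 0 reads at 8 h, against 68 and 72 in the controls, and the first 6 at 8 h, against 39 and 39 (-0.70 ± 0.13 log2 per h, adjusted p = 0.0318). The chromosome 5 pair was not called without control 2 or any of the 4 actinomycin D libraries (adjusted p = 0.072 to 0.218), and the chromosome 10 pair without any of the 6 libraries (0.0561 to 0.128).

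In 7 loci the direction was the opposite. At chr16:8856468-8859008 (plus strand, 5 ends) the last end had 76 and 76 reads in the controls and 36, 18, 23 and 14 at 1, 2, 4 and 8 h, and the first had 55 and 58 in the controls and 11, 7, 0 and 0. The difference was 0.99 ± 0.21 log2 per h (edgeR adjusted p = 0.0447). At chr1:138164687-138165737 (minus strand, 4 ends) the last tested end, 889 nt downstream of the first, had 6 at 8 h, against 60 and 97 in the controls, and the first had 0 at 8 h, against 84 and 115 (1.04 ± 0.20, adjusted p = 0.0319). At chr7:135837750-135841700 (minus strand, 6 ends) the last end had 3 reads at 8 h, against 7 and 17 in the controls, and the first had 2 at 8 h, against 173 and 188 (0.62 ± 0.13, adjusted p = 0.0442). Each of the 3 pairs was lost without either control, and without 1, 4 or 8 h, with adjusted p values of 0.0643 to 0.218, and the last also without 2 h (0.0517).

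The authors' deposited half-lives leaned the same way, but they come from the same 6 libraries and are not independent of the slopes above. For 2227 of 2244 member ends with 20 counts in each library, the rate behind the deposited half-life equalled an exponential fit to the scaled counts plus 0.1 per h, within 0.001 per h. The values were read in hours on that basis, and an end that neither fell nor rose after scaling has 6.93 h. In the authors' deposited table the median half-life was 2.83 h at the last end and 3.28 h at the first, in 1378 loci with 2 or more ends past the authors' filter. The half-life was shorter at the last end in 58.1% of the loci (Wilson 95% interval: 55.5% to 60.7%), in 57.9% of loci with 3 ends and in 57.0% of loci with 2. These intervals take loci as independent, although all share 6 libraries. Over the 409 loci with 4 such ends, the medians were 3.20, 2.85, 2.71 and 2.61 h from first to last. A steady order was uncommon: half-lives fell at every step in 174 of 1165 loci (14.9%) with 3 or more ends and rose at every step in 89 (7.64%).

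The span between the most and least stable end with a listed half-life was wide. The longest listed half-life of a locus was a median of 1.95 times its shortest, and at least 2 times in 665 of 1378 loci (48.3%), against 27.1% in loci with 3 ends and 19.2% in loci with 2. A larger number of ends widens this range by itself. Neighbouring ends less than 100 nt apart differed by a median of 1.27-fold in the authors' half-lives, and those 1000 nt or more apart by 1.52-fold. The shares differing 2-fold or more were 15% under 100 nt and 27.8% from 1000 nt. Among ends with at least 100 counts, the widest locus was chr11:86935710-86938135 (plus strand, 6 ends), with 0.666 h at the last end and 24.9 h at the first. Its last end had 96 and 130 reads in the controls and 41, 13, 17 and 7 afterwards, and its first had 11 and 30 in the controls and 46, 39, 38 and 42 afterwards. The first against last test did not pass there (adjusted p = 0.0715), and the locus test did (adjusted p = 0.00109, and 0.0763 without 8 h). The evenly used locus at chr2:23052592-23054071 showed a split along its order instead, with 10.5, 8.43 and 5.80 h at its first 3 ends, 2.45 to 3.21 h at the next 5 with a value and 1.62 h at the last. Its locus test passed (adjusted p = 0.0267), but not without control 2 or the 1, 4 or 8 h library (0.0772 to 0.754).

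The most used end of a locus was about as often the shorter-lived as the longer-lived of the top pair. Ends past the authors' filter with a listed half-life were ranked by reads in the gradient fractions, which the half-life does not use. In 1371 loci the most used end had a median half-life of 2.94 h and the second most used 3.04 h in the authors' deposited table, and the most used was the longer-lived in 48.1% (Wilson 95% interval: 45.5% to 50.8%). By place, the most used end was the longer-lived in 44.1% of the 775 loci where it lay 3′ of the second, and in 53.4% of the 596 where it lay 5′ of it.

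On the sucrose gradient, 44 of the 1427 loci (3.08%) fell towards the heavier fractions and 3 (0.21%) rose, by the edgeR slope on fraction order with adjusted p under 0.05. Over all 11135 loci tested the shares were 4.89% and 0.503%, and at an unadjusted p under 0.05 the counts in these loci were 102 (7.15%) and 95 (6.66%), against 11% and 7.1% over all. The median slope was 0.08 log2 per fraction in these loci and 0.05 over all. With the authors' scaling factors, which move the median of all loci to 0.50, 8 loci fell and 696 rose, so the direction of whole loci depends on the scaling. The falling count was 77 without fraction 0, 19 without fraction 1, 11 without fraction 7.5 and 21 without fraction 12, and the rising count 80 without fraction 0 and between 0 and 7 without any other. Of the 4 loci with most control reads, chr19:10058812-10059604 fell with a slope of -1.27 (adjusted p = 0.000147), and 90068 of its reads were in fraction 0 and 8515 in fraction 12.

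Few differences between ends of the same locus were called on the gradient. The range of slopes within a locus, which includes scatter, had a median of 0.27 log2 per fraction. The median standard error of 1 end's slope was 0.20. For the slope of the last end minus the first, the median standard error was 0.14 log2 per fraction. After actinomycin D it was 0.12 log2 per h, a unit that does not compare directly with a fraction. The locus test called 2 of 1421 loci (0.141%) at an adjusted p under 0.05, against 0.118% of all 5071 loci tested. At an unadjusted p under 0.05 it called 27 (1.9%), against 1.99% of all loci, and limma's diffSplice called 0. These counts do not show that the ends of a locus were alike on the gradient. In the direct comparison, the last end lay in heavier fractions than the first in 24 of 1421 loci (1.69%) and in lighter ones in 5 (0.352%). Over all loci tested these shares were 0.927% and 0.197%, in loci with 3 ends 0.72% were called in either direction, and in these loci 2.04%. The slope of the last end exceeded that of the first by a median of 0.05 log2 per fraction, and by 0.02 over all loci. When only the 2 most used ends of each locus were compared, the counts were 6 and 3. Without fraction 0 the counts were 21 and 3, without fraction 1 they were 6 and 2, without fraction 7.5 they were 8 and 2, and without fraction 2.5 they were 15 and 3.

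The lean towards heavier fractions grew with the distance between the ends. The last end had the higher slope in 49.8% of pairs less than 500 nt apart, in 56.1% from 500 nt, in 62.4% from 1000 nt and in 67.1% of pairs 2000 nt or more apart, with median differences of 0.00, 0.03, 0.06 and 0.11 log2 per fraction. The faster loss of the last end after actinomycin D did not follow distance in this way: it was seen in 64.4%, 55.3%, 57.9% and 55.6% of pairs. The share of pairs called grew over the same classes in both data sets, from 1.37% to 3.81% after actinomycin D and from 0.678% to 3.32% over the gradient. Loci with a long first to last distance also carry more ends, and the parts of distance and number were not separated. This pattern across classes is a description, with no test.

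**Figure D5:**
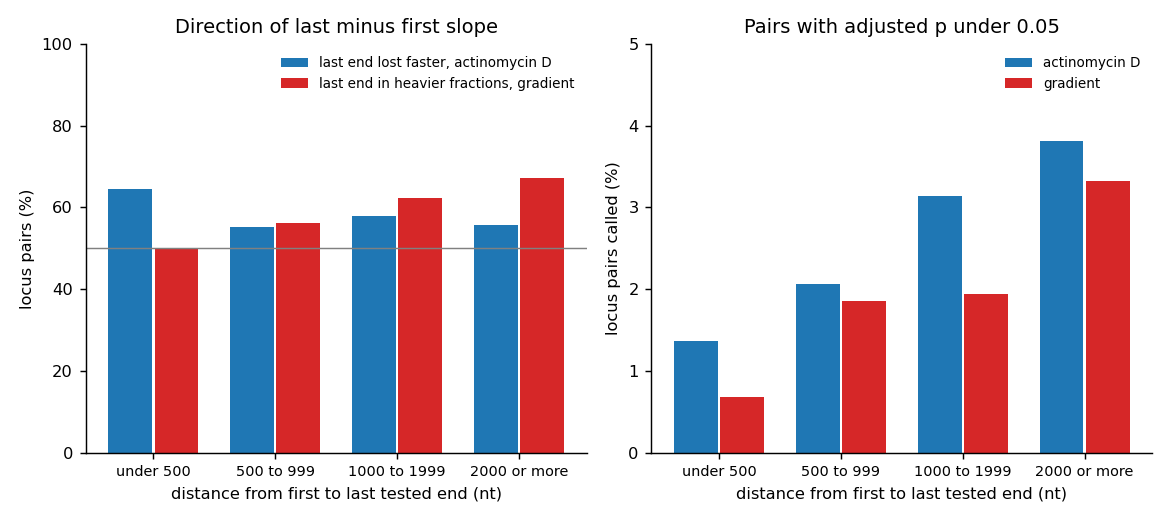
Percent of loci whose last end was lost faster than the first after actinomycin D or lay in heavier fractions over the gradient (left, grey line at 50%), and percent with an adjusted p under 0.05 in either direction (right), by the distance between the first and last tested end in nt. The share with a heavier last end climbs from 49.8% to 67.1% with distance, while that with a faster-lost last end is highest, at 64.4%, under 500 nt.

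Ribosome load in the authors' deposited table differed little within loci. At 7414 of 7414 member ends, averaging the column-name numbers with the scaled counts as weights gave the deposited value within 1e-06. In 1384 loci the median was 6.54 ribosomes per mRNA at the last end and 6.46 at the first. The last end had the higher value in 60.1% of these loci, in 56.0% of loci with 3 ends and in 52.8% of loci with 2. The largest value of a locus was a median of 1.11 times its smallest, and at least 2 times in 12 loci (0.867%). In the 429 loci with 4 ends past the filter, medians along the order were 6.61, 6.74, 6.69 and 6.72. Ribosome load rose at every step in 176 of 1182 loci (14.9%) and fell at every step in 103 (8.71%).

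The 2 loci called by the locus test each had ends with most of their reads in fraction 0. At chr11:86396940-86398230 (minus strand, 5 ends) the fourth end had 62 reads in fraction 0 and 11, 3, 1, 7 and 1 in fractions 1, 2.5, 4.5, 7.5 and 12. The third had 202 in fraction 0 and 28, 19, 10, 5 and 14 in the others. The second, the most used end, had 170, 411, 1117, 1716, 2017 and 1672. In the authors' deposited table the fourth end carries 0.652 ribosomes per mRNA, the third 0.809 and the second 5.94. After actinomycin D the fourth had 8 reads at 8 h, against 40 and 55 in the controls, and the second 267 at 8 h, against 1305 and 1594. The locus test had an adjusted p of 0.000508 over the gradient and 0.874 in decay. Without fraction 0 the gradient call was lost (0.569).

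At chr17:13115783-13117968 (plus strand, 6 ends) the last end had 39, 84, 85, 43, 40 and 145 reads along the fractions, while the first, 2185 nt upstream, had 91 in fraction 0 and 3, 3, 2, 2 and 0 in the others. The last end differed from the first by 2.17 ± 0.38 log2 per fraction (edgeR adjusted p = 0.0187; 0.579 without fraction 0 and 0.0709 without fraction 12). The locus test had an adjusted p of 0.0111, and was not called without fraction 0, 1, 2.5 or 12 (0.0575 to 1). This locus was also called in decay (locus test adjusted p = 0.00319; 0.557 without 8 h), with the second end at 124 reads at 8 h, against 49 and 23 in the controls. The first end went the other way, with 14 reads at 8 h, against 151 and 54 in controls that differed. The deposited half-life is 2.22 h at the first end and 6.18 h at the last (edgeR first against last adjusted p = 0.0732, not called). At the third end of this locus it is 50 h, the highest value listed. A gap of 1498 nt separates the first end of this locus from the other 5. The loci next in order of p were not called: at chr1:158608681-158612897 (minus strand, 5 ends; adjusted p = 0.071) the second end had 82 reads in fraction 0 and at most 5 in any other, and at chr2:130102109-130105047 (plus strand, 4 ends; adjusted p = 0.741) the first had 246 in fraction 0 and at most 6.

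At chr10:80362411-80365536 (minus strand, 4 ends) the last and the third end peaked in the middle of the gradient and the second at its end. The third end had 118, 933, 3463, 2642, 876 and 628 reads along the fractions, the last had 13, 67, 179, 131, 55 and 50, and the second had 64, 195, 278, 188, 334 and 1453. In the authors' deposited table the second end carries 8.03 ribosomes per mRNA, the third 3.69 and the last 3.80, and gaps of 1428 and 1452 nt flank the second end. After actinomycin D the third end had 825 reads at 8 h, against 515 and 612 in the controls, and the second had 143 at 8 h, against 841 and 739 (decay locus test adjusted p = 0.00314; 0.119 without 8 h). The locus test of ends over the gradient did not call this locus (diffSpliceDGE unadjusted p = 0.0142). The last end differed from the first by -1.60 ± 0.22 log2 per fraction (edgeR adjusted p = 0.00252), where the first end had at most 21 reads in any fraction.

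The first against last test also called the chromosome 10 locus with the fast-decaying last end (chr10:52156570-52159010) over the gradient. The locus test of ends did not call this locus there (diffSpliceDGE unadjusted p = 0.382). Its last end had 115, 784, 1624, 1656, 878 and 820 reads along the fractions and its first 84, 506, 463, 244, 143 and 88. The share of the last end was 13.6% in fraction 0 and 23.9% in fraction 12, and that of the first 9.94% and 2.57%. The difference was 0.60 ± 0.08 log2 per fraction (adjusted p = 0.0014), and the authors' deposited ribosomes per mRNA were 4.37 at the last end and 2.87 at the first. Of the 29 pairs called over the gradient, 4 were also among the 39 called in decay. At chr2:26872265-26876608 (plus strand, 6 ends) the last end had 14, 82, 163, 109, 54 and 44 reads and the first tested end 3, 21, 11, 7, 0 and 0, a difference of 1.08 ± 0.24 with an adjusted p of 0.04998 that was lost without fraction 1 (0.306), 2.5 (0.0875), 7.5 (0.192) or 12 (0.0942).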

How the data were processed

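Values are raw counts of 2P-Seq reads, deposited by the authors, at poly(A) sites annotated by 3P-Seq, in mm9, with 1 scaling factor per library, per the file headers. Reads were aligned with Bowtie, per the submitters' processing notes; the rule for counting reads at neighbouring ends was not given in these sources. The authors also deposited a half-life and ribosomes per mRNA for each site.

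Tests used edgeR 4.0.16 (R 4.3.3; robust quasi-likelihood F test, TMM, Benjamini-Hochberg over all loci tested, called at an adjusted p under 0.05). The model was a slope on hours, controls at 0 h, or on fraction order, 1 to 6 by the number in the column name. Loci needed 60 counts and ends 30 over the 6 libraries of a fit. diffSpliceDGE gave the locus test of ends. The first and last such end were compared in a model with a term per library, the end and its interaction with hours or order. Ratios of reads used a pseudocount of 0.5. Per-site values by position needed the authors' filter and, for half-lives, a listed value. The tests were tried on simulated counts for the hours axis only, with linear slopes and a fixed dispersion. That trial does not cover the gradient or the real scatter of these libraries. DESeq2 1.42.0 and limma 3.58.1 were alternatives.

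With 1 library per time and fraction, and controls not stated to be separate cultures, p-values reflect how far these libraries scatter about a line, and that scatter may be technical. Intervals on shares cover counting error only. Members and lists were chosen with earlier results of these data known. Named loci were those with most control reads, most ends, most even or dominated use, the smallest locus p values, the largest called pair differences in each direction and the widest half-lives.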

Additional observations from a re-analysis of the deposited data

How the results depend on the processing

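Counts of loci called moved with the setting more than the shares by position. With the authors' factors, 933 loci fell and 31 rose after actinomycin D, and 8 fell and 696 rose over the gradient. With limma diffSplice the ends differed in 101 loci in decay and 0 over the gradient, and with ends of 10 counts in 4 over the gradient. For a last end lost faster and more slowly, DESeq2 called 73 and 19 loci, ends of 10 counts 20 and 1, ends of 100 counts 72 and 20, and the 2 most abundant ends 42 and 18. Over the gradient, a heavier and a lighter last end were called in 14 and 3 loci with ends of 100 counts, in 6 and 3 with the 2 most abundant ends and in 7 and 2 with the number in the column name as covariate. For whole loci over the gradient, DESeq2 called 80 falling and 15 rising, no filter 17 rising, and the number in the column name 13 rising.

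On leaving out 1 library at a time, loci with ends that differ in decay numbered 23 to 181, a last end lost faster 1 to 20 and more slowly 0 to 6. Falling loci after actinomycin D numbered 349 to 468 and rising loci 313 to 391. Over the gradient, falling loci numbered 11 to 77, rising loci 0 to 80, loci with differing ends 0 to 2, a lighter last end 2 to 5 and a heavier one 6 to 26. The cause of these moves was not tested.

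The median effective number of ends in the controls was 2.12 in the 954 loci deep enough in all 6 libraries. In the 1390 loci with at least 50 reads in each control it was 2.23, with the controls summed. As a Shannon number on 100 reads it was 2.53, where 931 loci had 100 reads in each control. It was 2.09 with a link distance of 1000 nt, which gave 1054 members, and 1.89 with ends within 30 nt merged. These values come from unlike sets of loci or ends. The last end was most used in 26.9% of loci, and in 32.9% when only ends of 30 or more counts were ordered. Ribosomes per mRNA were lower at the last end in 39.9% of loci, and at the more 3′ of the 2 most abundant ends in 44.1%. No paired analysis was possible because the shared numbers of controls and fractions do not pair libraries.

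Depth limits single ends: many first and last ends have few reads at 8 h or in fraction 0.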
